A study of Mus musculus with 6 samples.

Results

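The D cyclins and the cyclin-dependent kinase (CDK) inhibitors of the Cip/Kip and INK4 families control whether a cell stays at rest or passes from G1 into S phase. The 8 genes described here are the D cyclins Ccnd1, Ccnd2 and Ccnd3, the Cip/Kip genes Cdkn1a, Cdkn1b and Cdkn1c, and the INK4 genes Cdkn2c and Cdkn2d. They were chosen by symbol, and all probe sets annotated to those symbols were taken. This gave 20 of the 45037 probe sets that are not array controls, and 8 of the 18193 genes that a probe set names alone. A probe set is a group of short oligonucleotides against 1 transcript, and its deposited signal is a linear intensity.

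RNA came from the femoral shafts of 3 male C57BL/6 mice aged 8 weeks, all of which had received saline by intraperitoneal injection. The 3 endosteal arrays, labelled A, B and C, hold RNA released by Trizol, a phenol-based lysis reagent, run through shafts already emptied of marrow. The 3 central arrays, also labelled A, B and C, hold RNA of the marrow flushed out beforehand with buffered saline, pelleted and then lysed. Muscle, periosteum and metaphyses had been taken off before the flush, per the labels. Both regions are mixtures of cells, so that fewer cells of a type and less RNA per cell cannot be told apart.

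D cyclins are made in response to growth signals and activate CDK4 and CDK6. The active kinases phosphorylate the retinoblastoma protein and its relatives, which releases E2F transcription factors and lets DNA replication begin. Cip/Kip proteins bind many cyclin and CDK complexes, while INK4 proteins bind CDK4 and CDK6 alone. In mouse marrow, the Cip/Kip protein p57, the product of Cdkn1c, is known for its part in the quiescence of haematopoietic stem cells, the rare cells from which blood is renewed.

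Ccnd3 was lower in endosteal RNA and Cdkn1c was higher, with an adjusted p that only just passed for Cdkn1c. The inhibitors Cdkn1b, by its brightest probe set, and Cdkn2d lay below central RNA on every endosteal array without passing the test. The second Cdkn1b probe set went the other way, at 0.51 on the log2 scale. Cdkn1a lay above central RNA on every endosteal array, also without passing. Ccnd1, Ccnd2, Cdkn1a and Cdkn2c differed by at most 0.36 on the log2 scale, and their confidence intervals held 0, as did that of Cdkn2d. Differences are endosteal minus central means of log2(signal + 16), tested with limma and adjusted by the Benjamini-Hochberg method over all 18193 genes. A gene is called when its adjusted p was under 0.05. Where a gene has several probe sets, the brightest by mean signal stands for it.

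By that rule 1 of the 8 genes was called higher and 1 lower in endosteal RNA. Over all genes tested 7.92% passed upwards and 4.02% downwards, and 1 of 8 in each direction lies near that background. The unadjusted limma p was under 0.05 for 3 of 8 members, against 29.2% of all genes. All endosteal arrays lay above all central arrays for 2 members and below them for 3, where the shares over all genes were 22.3% and 15.4%. The median difference was 0.04 for the 8 members and 0.10 for all genes, with 4 members negative and 4 positive. Adjusted over the 45037 probe sets instead, 0 of the 20 member probe sets were called in the limma fit, and 6 had an unadjusted p under 0.05 (22.8% of all probe sets). The corresponding shares of all probe sets called were 3.21% higher and 1.29% lower. All endosteal arrays were above for 5 member probe sets (17.8% of all probe sets) and below for 5 (13.6%). With an intensity trend in limma's variance estimate, 1 member probe set was called higher (7.59% of all) and 4 lower (6.47%).

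The arrays of a region resembled each other, with correlations across genes of 0.944 to 0.946 within endosteal and 0.971 to 0.973 within central arrays, and 0.921 to 0.937 between regions. Their tissue labels were set against marker genes. All 10 muscle markers and 6 of 7 bone matrix markers were called higher in endosteal RNA, where the summed muscle signal ranged from 66162 to 134038, against 535 to 910 in central RNA. The summed bone matrix signal ranged from 80969 to 98468 in endosteal RNA and from 2111 to 2771 in central RNA. Endosteal RNA therefore held muscle transcripts as well as bone transcripts, although the labels describe the removal of muscle. Of 10 endothelial markers 7 were higher, as were 5 of 8 chondrocyte, 5 of 7 megakaryocyte, 4 of 8 macrophage and 5 of 7 osteoclast markers, with 1 osteoclast marker lower. Neutrophil markers gave 4 higher and 2 lower of 10, and stem and progenitor markers 2 higher and 1 lower of 10. Of 8 B lymphocyte markers 3 were lower and 0 higher, and of 7 erythroid markers 0 were called by limma, with 2 at an unadjusted p under 0.05. With the letter as a fixed block most of these calls were lost outside muscle (9 higher) and bone matrix (5 higher). In that fit 1 endothelial, 2 chondrocyte, 2 osteoclast and 1 macrophage marker were called higher by limma, and 0 megakaryocyte, neutrophil, B lymphocyte, erythroid or stem and progenitor markers were called.

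**Figure D1:**
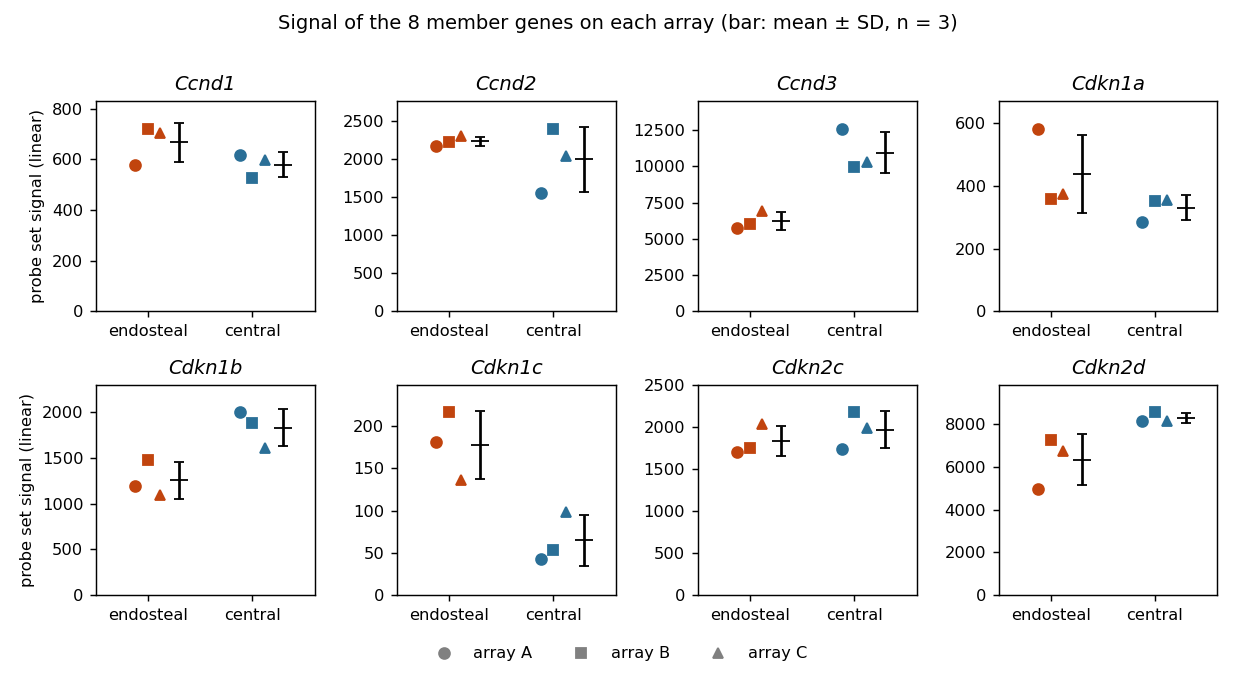
Signal of each of the 8 genes on every array, with endosteal arrays left of central arrays and a linear axis of signal. Points are arrays and bars are means ± SD. The endosteal points of Ccnd3 lie between 5734 and 6912, all below the central points between 9953 and 12587.

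Ccnd3 was the D cyclin that differed. It encodes cyclin D3, which in the mouse is required for the expansion of early lymphocytes and for granulocyte production. Its probe set 1415907_at had signals of 5734, 6012 and 6912 on the endosteal arrays A to C, against 12587, 9953 and 10304 on the central arrays A to C. The highest endosteal value was well below the lowest central one. Ccnd3 averaged 6219 ± 616 in endosteal RNA and 10948 ± 1430 in central RNA (SD, n = 3 each). The log2 difference was -0.81 (SE 0.16, 95% confidence interval -1.20 to -0.43), which is 1.75-fold lower (limma adjusted p = 0.0305). With the letter as a fixed block the limma adjusted p was 0.102.

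The other probe sets of Ccnd3 pointed the same way. The probe set 1444323_at had 256, 332 and 400 on the endosteal arrays and 523, 648 and 739 on the central arrays (log2 difference -0.93, SE 0.23). The probe set 1438805_at had 370, 301 and 140 on the endosteal arrays and 673, 564 and 567 on the central arrays (log2 difference -1.20, SE 0.36). In both, as in the first, no endosteal array reached the lowest central array. Adjusted over all probe sets, the 3 had limma p of 0.0619, 0.0843 and 0.123. The mean of the 3 probe sets gave a log2 difference of -0.98 (limma adjusted p = 0.0135). Leaving out any 1 of the 6 arrays ended the call, with differences of -0.89 to -0.71 and limma adjusted p of 0.0533 to 0.0851.

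The B lymphocyte markers were lower in endosteal RNA, as Ccnd3 was, and 3 of 8 were called. Among the endosteal arrays Ccnd3 and the called markers Cd79a, Cd79b and Ms4a1 all rose from A to C. Among the central arrays the order differed. Ccnd3 was highest on central array A, where these called markers were lowest. Of the markers not called, Vpreb1, Igll1 and Blnk were lowest on central array A, and Pax5 and Ebf1 on central array B. The summed signal of all 8 B lymphocyte markers ranged from 6646 to 12664 in endosteal RNA and from 17149 to 26724 in central RNA. Their median log2 difference was -0.82. The neutrophil markers were divided. Their summed signal ranged from 541411 to 560603 in endosteal RNA and from 358447 to 394009 in central RNA, and the 4 called higher were S100a9, Ngp, S100a8 and Camp, at 0.82, 0.76, 0.55 and 0.53. After quantile normalisation these stood at 0.11, 0.07, -0.11 and -0.04. Mmp8 and Cxcr2 were called lower with Ccnd3, at -0.77 and -1.45. The part of either cell type in the difference of Ccnd3 was not tested.

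Promoter windows show what lies at the starts of the genes whose endosteal arrays were all lower. RefSeq windows of 300 bases on GRCm38.p6, from 250 before to 50 after a gene's start, were at hand for 5 of the 8 members, namely Ccnd3, Cdkn1a, Cdkn1b, Cdkn2c and Cdkn2d. The arrays themselves carry no named build. Capitals mark the GC box GGGCGG, the CCAAT box and the FOXO motif TGTTTAC, each searched on both strands. The 2 windows of Ccnd3 belong to different starts, chr17:47504801-47505100 and chr17:47593217-47593516, both on the plus strand.
Ccnd3, upstream start: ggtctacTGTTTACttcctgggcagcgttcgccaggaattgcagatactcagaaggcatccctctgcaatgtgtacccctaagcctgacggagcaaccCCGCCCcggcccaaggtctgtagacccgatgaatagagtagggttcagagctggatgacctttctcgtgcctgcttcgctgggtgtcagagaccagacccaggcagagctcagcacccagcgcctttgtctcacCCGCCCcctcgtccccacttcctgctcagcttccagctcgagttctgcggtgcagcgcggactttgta
Ccnd3, downstream start: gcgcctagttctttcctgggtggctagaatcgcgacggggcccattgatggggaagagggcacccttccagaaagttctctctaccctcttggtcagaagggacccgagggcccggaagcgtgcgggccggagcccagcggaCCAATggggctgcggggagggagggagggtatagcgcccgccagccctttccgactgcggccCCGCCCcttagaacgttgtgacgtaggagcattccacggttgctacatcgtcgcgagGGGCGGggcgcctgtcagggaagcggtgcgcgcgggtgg
The upstream window holds 2 GC boxes and 1 FOXO motif, and the downstream one holds 2 GC boxes and 1 CCAAT box. Of 32851 windows of that length, 35.7% hold a GC box, 37.4% a CCAAT box and 3.65% the FOXO motif. The GC content was 59.3% and 67.0%, against a median of 52.7% over all windows. The E box CACGTG (7.15% of windows) and the E2F motifs TTTCCCGC or TTTGGCGC (1.56%) have no match in either window. A match is a run of letters and not a shown binding site.

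Ccnd1, which encodes the cyclin D1 that many cell types induce on mitogen stimulation, had overlapping signals. Its probe set 1417420_at had 577, 721 and 703 on the endosteal arrays A to C, against 617, 525 and 598 on the central arrays A to C. Endosteal array A lay within the central range while B and C lay above it. Ccnd1 averaged 667 ± 78.5 in endosteal RNA and 580 ± 48.5 in central RNA (SD, n = 3 each), a log2 difference of 0.19 (SE 0.15, interval -0.17 to 0.56, limma adjusted p = 0.448). The other 2 probe sets, 1448698_at and 1417419_at, had log2 differences of 0.27 and 0.11, and their arrays overlapped as well.

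Ccnd2, which encodes cyclin D2, a cyclin that B lymphocytes induce on activation, had 7 probe sets. The one with the highest signal, 1416122_at, had 2170, 2230 and 2299 on the endosteal arrays and 1553, 2401 and 2045 on the central arrays. The endosteal arrays agreed closely and lay inside the wide central range. Ccnd2 averaged 2233 ± 64.4 in endosteal RNA and 2000 ± 425 in central RNA (SD, n = 3 each), a log2 difference of 0.18 (SE 0.19, interval -0.28 to 0.64, limma adjusted p = 0.581). Over the 7 probe sets the difference ran from -0.37 for 1448229_s_at to 0.49 for 1416124_at, and 6 of 7 were positive. The probe sets 1416124_at and 1416123_at were dim, with endosteal means of 101 and 107 and central means of 66.0 and 94.9. After quantile normalisation they stood at 0.15 and -0.13. Endosteal arrays were all above central ones for 1430127_a_at, 1455956_x_at and 1416124_at. The smallest p among them was that of 1455956_x_at, at a difference of 0.46 (limma adjusted p = 0.188 over all probe sets). An interval from -0.28 to 0.64 leaves room for a change of either sign.

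**Figure D2:**
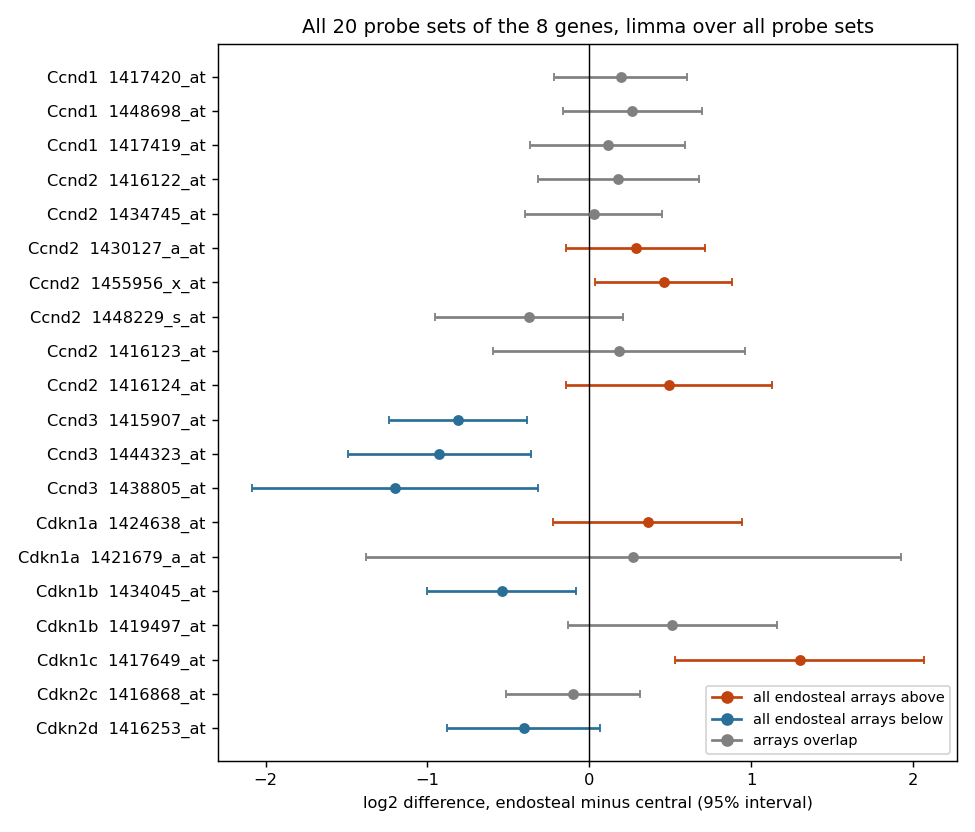
Log2 difference, endosteal minus central, of each of the 20 probe sets with its 95% confidence interval. The 3 Ccnd3 probe sets lie at -0.81, -0.93 and -1.20, the 7 Ccnd2 probe sets spread from -0.37 to 0.49, and the 2 Cdkn1b probe sets lie on opposite sides of 0.

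Among the Cip/Kip genes, Cdkn1c was called higher in endosteal RNA. It encodes p57 and is an imprinted gene, expressed mainly from the maternal allele. Its only probe set, 1417649_at, had signals of 181, 216 and 136 on the endosteal arrays A to C, against 42.4, 53.5 and 98.9 on the central arrays A to C. The lowest endosteal array exceeded the highest central array, and central array C stood nearest to the endosteal arrays. Cdkn1c averaged 178 ± 40.1 in endosteal RNA and 64.9 ± 29.9 in central RNA (SD, n = 3 each). The log2 difference was 1.30 (SE 0.31, interval 0.54 to 2.06), which is 2.46-fold higher and understated at so low a signal (limma adjusted p = 0.04996).

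That adjusted p stood at the threshold itself. It was 0.135 with the letter as a fixed block, 0.0695 after quantile normalisation, 0.0571 after centring each array on its median, 0.0681 with pseudocount 1 and 0.0537 with every gene as the mean over its probe sets. Cdkn1c passed with pseudocount 64 (0.0284), with an intensity trend (0.0370) and with the letter as a random block (0.0430). It passed without central array C (0.0414) and did not pass without any 1 of the other 5 arrays (0.0732 to 0.148), with differences from 1.10 to 1.58 over the 6 fits. The direction was positive in every alternative that tested it.

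Like Cdkn1c, most markers of muscle, bone, endothelium and cartilage were called higher in endosteal RNA. So were 5 of 7 megakaryocyte, 4 of 8 macrophage and 5 of 7 osteoclast markers, with 1 osteoclast marker lower. The summed endothelial signal ranged from 4779 to 5223 in endosteal RNA and from 1444 to 2038 in central RNA, and the summed chondrocyte signal from 3515 to 6776 in endosteal RNA and from 303 to 376 in central RNA. The summed signal of 10 stem and progenitor markers ranged from 3357 to 3835 in endosteal RNA and from 2970 to 3523 in central RNA, with a median log2 difference of 0.14. The part of these cells in the difference of Cdkn1c was not tested.

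Cdkn1a, which encodes the p53-induced inhibitor p21, had signals of 583, 358 and 375 on the endosteal arrays A to C, against 286, 353 and 355 on the central arrays A to C for probe set 1424638_at. The regions did not overlap, but endosteal arrays B and C exceeded central array C by little and array A set the mean. Cdkn1a averaged 439 ± 125 in endosteal RNA and 332 ± 39.1 in central RNA (SD, n = 3 each), a log2 difference of 0.36 (SE 0.23, interval -0.20 to 0.92, limma adjusted p = 0.354). The second probe set, 1421679_a_at, had 98.7, 45.7 and 16.3 on the endosteal arrays and 29.3, 10.2 and 93.4 on the central arrays. Those signals are close to background and cross freely (log2 difference 0.27, SE 0.67), so that a difference was not detectable with that probe set.

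Cdkn1b encodes p27, the inhibitor that accumulates in many resting cells. Its probe set 1434045_at had 1191, 1482 and 1096 on the endosteal arrays A to C, against 1999, 1885 and 1604 on the central arrays A to C. Every endosteal array was below every central array. Cdkn1b averaged 1256 ± 201 in endosteal RNA and 1830 ± 203 in central RNA (SD, n = 3 each), a log2 difference of -0.54 (SE 0.17, interval -0.97 to -0.12). The unadjusted limma p was 0.0208 and the adjusted p 0.101, so it was not called. It passed with an intensity trend (0.0148), among genes above the median level (0.0231) and after centring (-0.80, limma adjusted p = 0.0357).

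The second Cdkn1b probe set went the other way. The probe set 1419497_at had 145, 108 and 75.1 on the endosteal arrays and 83.0, 72.2 and 55.6 on the central arrays, with overlap between endosteal C and central A. Its log2 difference was 0.51 (SE 0.26, limma adjusted p = 0.315 over all probe sets). The mean of both probe sets differed by -0.01 (limma adjusted p = 0.972). Which of them tracks the Cdkn1b transcript better cannot be told from these arrays. The RefSeq window of Cdkn1b, chr6:134920151-134920450 on the plus strand, is printed because all endosteal arrays of its main probe set were lower.
Cdkn1b: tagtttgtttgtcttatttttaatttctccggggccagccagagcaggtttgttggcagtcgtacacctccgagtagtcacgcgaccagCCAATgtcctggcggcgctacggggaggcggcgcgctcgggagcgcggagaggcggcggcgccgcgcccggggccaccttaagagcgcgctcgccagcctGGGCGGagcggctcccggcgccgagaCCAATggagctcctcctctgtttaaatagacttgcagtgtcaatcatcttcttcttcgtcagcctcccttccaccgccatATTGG
It holds 1 GC box and 3 CCAAT boxes at a GC content of 62.0%, and no FOXO motif.

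Of the INK4 genes, Cdkn2d encodes p19 and Cdkn2c encodes p18, inhibitors of CDK4 and CDK6. Probe set 1416253_at of Cdkn2d had 4988, 7267 and 6742 on the endosteal arrays A to C, against 8131, 8551 and 8168 on the central arrays A to C. The central arrays agreed closely and every endosteal array was below them. Cdkn2d averaged 6332 ± 1193 in endosteal RNA and 8283 ± 233 in central RNA (SD, n = 3 each), a log2 difference of -0.40 (SE 0.18, interval -0.84 to 0.03, limma adjusted p = 0.200). It passed with an intensity trend alone among the fits on deposited scale (limma adjusted p = 0.0467). Its RefSeq window, chr9:21291160-21291459 on the minus strand, completes the set of genes that were lower on every endosteal array.
Cdkn2d: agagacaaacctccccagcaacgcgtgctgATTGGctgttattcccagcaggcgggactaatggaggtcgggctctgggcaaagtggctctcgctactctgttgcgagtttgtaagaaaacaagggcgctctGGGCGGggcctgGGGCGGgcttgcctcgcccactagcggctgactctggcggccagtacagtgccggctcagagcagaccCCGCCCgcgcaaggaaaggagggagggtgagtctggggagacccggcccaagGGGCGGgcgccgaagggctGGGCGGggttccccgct
This window holds 5 GC boxes and 1 CCAAT box at a GC content of 66.3%, and no FOXO motif. GC boxes were not particular to the printed windows, since 1 window each of Cdkn1a (2 boxes) and Cdkn2c (4 boxes) holds them too, as do 35.7% of all windows.

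Cdkn2c showed no separation. Its probe set 1416868_at had 1704, 1758 and 2045 on the endosteal arrays A to C, against 1739, 2178 and 1992 on the central arrays A to C. The ranges lay almost on top of each other. Cdkn2c averaged 1835 ± 183 in endosteal RNA and 1970 ± 220 in central RNA (SD, n = 3 each), a log2 difference of -0.10 (SE 0.15, interval -0.47 to 0.27, limma adjusted p = 0.708). The INK4 genes Cdkn2a and Cdkn2b, which encode p16 with ARF and p15, were near background in both regions. Cdkn2a averaged 48.7 ± 39.7 in endosteal RNA and 21.6 ± 11.1 in central RNA, and Cdkn2b averaged 12.9 ± 10.9 in endosteal RNA and 47.2 ± 32.3 in central RNA (SD, n = 3 each). Of the pair, Cdkn2b had the smaller p and did not pass (log2 difference -1.02, limma adjusted p = 0.263).

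Ratios of 2 members on the same array cancel most of that array's scale, apart from what the offset of 16 adds at low signal. Their size depends on the probes, so only their difference between regions is read. The 7 pairs were chosen after the data were seen. Each was compared by a two-sided exact permutation test over arrays, whose smallest possible p with 3 against 3 is 0.1, so that no pair could pass. The log2 ratio of Ccnd3 to Ccnd1 was 3.28, 3.03 and 3.27 on the endosteal arrays A to C, against 4.32, 4.20 and 4.07 on the central arrays A to C. The regions were apart by 1 unit, with means of 3.19 ± 0.14 in endosteal and 4.20 ± 0.12 in central RNA (difference -1.004, SD, n = 3 each, exact p = 0.1, adjusted over 7 pairs 0.14).

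The ratio of Ccnd3 to Ccnd2 behaved likewise, at 1.47 ± 0.10 in endosteal and 2.46 ± 0.49 in central RNA (difference -0.99, n = 3 each, exact p = 0.1). Ccnd2 to Ccnd1 gave 1.73 ± 0.14 in endosteal and 1.74 ± 0.42 in central RNA (difference -0.01, n = 3 each, exact p = 1). The regions overlapped for Ccnd2 to Ccnd1 and not for the pairs with Ccnd3, which restates the difference of Ccnd3 and adds no test to it.

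Among inhibitors, the ratio of Cdkn1c to Cdkn1b was -2.62, -2.69 and -2.87 on the endosteal arrays A to C, against -5.11, -4.77 and -3.82 on the central arrays A to C. The means were -2.72 ± 0.13 in endosteal and -4.57 ± 0.67 in central RNA (difference 1.84, n = 3 each, exact p = 0.1). This was the pair with the widest difference of the 7, and it was 1.68 under poly-A scaling, a setting added after the data were seen. The ratio of Cdkn1a to Cdkn1b was -1.51 ± 0.50 in endosteal and -2.41 ± 0.31 in central RNA, without overlap (difference 0.90, n = 3 each, exact p = 0.1). Cdkn1c to Cdkn1a was -1.22 ± 0.48 in endosteal and -2.16 ± 0.40 in central RNA, also without overlap (difference 0.94, n = 3 each, exact p = 0.1). Cdkn2d to Cdkn2c overlapped at 1.76 ± 0.25 in endosteal and 2.07 ± 0.13 in central RNA (difference -0.31, n = 3 each, exact p = 0.3). Cdkn1b enters these ratios through its main probe set. Its second, dimmer probe set had a difference of the opposite sign that did not pass.

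**Figure D3:**
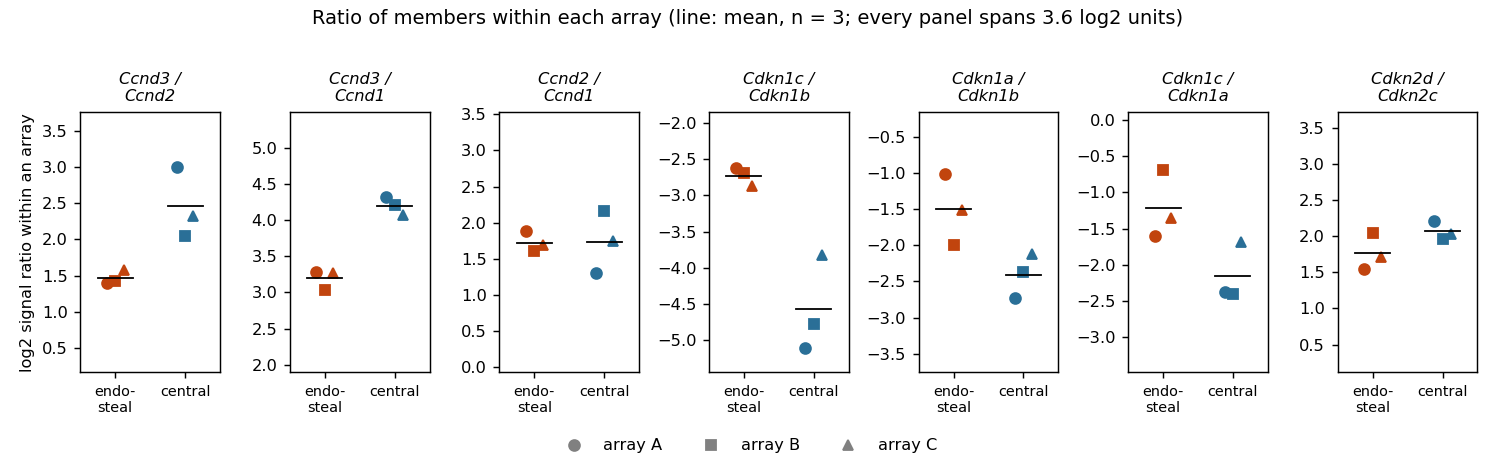
Log2 ratio of member pairs on each array, endosteal arrays left of central arrays, with means as bars. Ccnd3 to Ccnd1 lies between 3.03 and 3.28 on endosteal arrays and between 4.07 and 4.32 on central arrays, while Ccnd2 to Ccnd1 overlaps.

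The direction of several members depended on how arrays were put on a common scale. The deposited signals share a trimmed mean of 500 on every array, but the array medians were 127, 131 and 119 on endosteal arrays and 96.9, 103 and 106 on central arrays. The poly-A controls, probe sets for bacterial transcripts designed to be added to RNA before labelling, had geometric means of 685, 716 and 748 on endosteal arrays and 1657, 1465 and 1272 on central arrays. Scaling to these 24 control probe sets raised the median difference of all genes to 0.97, against 0.10 as deposited, 0.02 after quantile normalisation and -0.16 after centring. Such scaling assumes that equal amounts of control were added per unit of RNA, which was not tested.

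Under poly-A scaling Ccnd3 had a log2 difference of 0.21 (limma adjusted p = 0.323), Cdkn2d of 0.62 (0.0449), Cdkn2c of 0.92 (0.0122) and Cdkn1b of 0.47 (0.0789), each positive where the deposited scale gave a negative value. Cdkn1c stood at 2.15 (limma adjusted p = 0.00421). In that fit 6 of 8 members were called higher and 0 lower, but so were 57.9% of all genes, with 0.253% lower. Ccnd1, at 1.19, Ccnd2, at 1.20, and Cdkn1a, at 1.34, were among the 6, and after centring Ccnd1 and Ccnd2 turned to -0.07 and -0.08 without passing. Relative to the median of all genes Ccnd3 stood at -0.91 as deposited, -0.83 after quantile normalisation, -0.91 after centring and -0.75 under poly-A scaling. Cdkn1c stood at 1.20, 1.01, 1.20 and 1.19 in the same order. Of all genes 5.11% had a lower difference than Ccnd3 as deposited and 10.4% under poly-A scaling, while 93.3% had a lower difference than Cdkn1c as deposited.

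**Figure D4:**
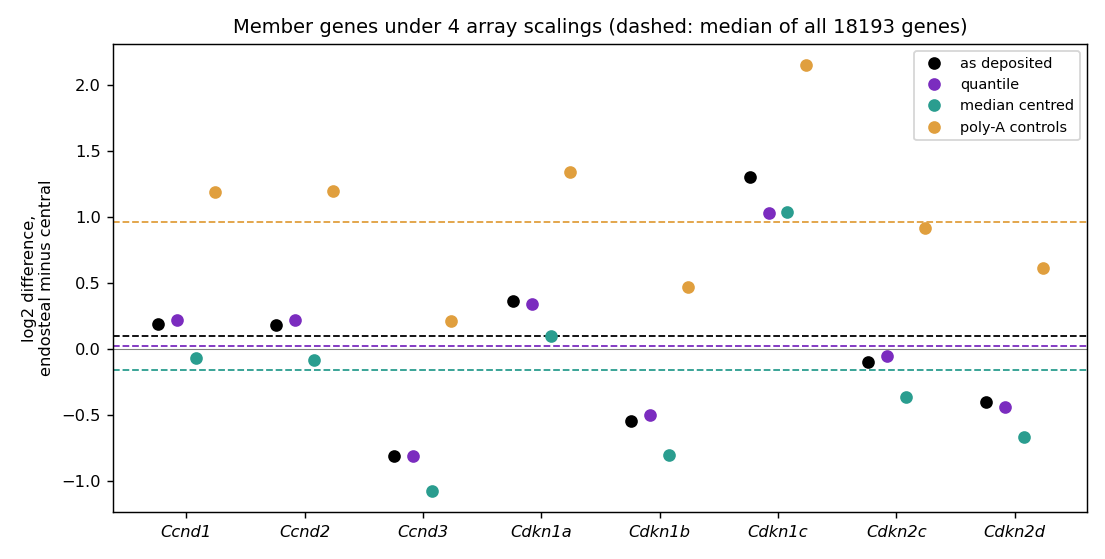
Log2 difference, endosteal minus central, of the 8 genes and of the median gene under 4 scalings. Under poly-A scaling the median gene moves to 0.97 and Ccnd3 to 0.21, while Ccnd3 stays below the median gene by 0.75 to 0.91 in all 4.

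Genes whose centred log2 values ran closest to each member over the 6 arrays were found among 9089 genes above the median level, as Euclidean distances. Ccnd3 ran closest to Bmx, a Tec family kinase gene (0.07), and to Mmp8, the neutrophil collagenase gene (0.13). Cdkn1b ran closest to Pstpip2 (0.09) and Rnase6 (0.17). Cdkn1c had the most distant neighbours, Rhobtb3 (0.35) and Tnfrsf19, a receptor gene of the tumour necrosis factor receptor family (0.37). Cdkn1c itself lies below the level searched, and its difference had the largest SE of the members (0.31). Cdkn2d ran closest to Pdlim2 (0.10) and to the kinase gene Pim1 (0.10), and Cdkn2c to Fbxo7 (0.08) and Arl2bp (0.09). For Ccnd1 they were Acss2 (0.11) and Rp2 (0.12), for Ccnd2 Mtm1 (0.08) and Snrnp70 (0.11), and for Cdkn1a Qser1 (0.13) and B3galt6 (0.20). With 6 arrays such nearness is a description.

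The other genes of the pathway, and 16 imprinted genes set beside Cdkn1c, came from 9 lists with 126 measured genes. Of these 13 passed as higher and 5 as lower in endosteal RNA, beside 7.92% and 4.02% of all genes. Imprinted genes made up 5 of the 13 higher calls and 0 of the lower ones. With the letter as a fixed block 0 of the 126 were called. In that fit 38 had an unadjusted limma p under 0.05, as did 4942 of all 18193 genes. Without the block 43 of the 126 did, against 29.2% of all genes. Of 10 genes of G1 kinases, cyclin E, CDK activation and the kinase chaperone Cdc37, 1 was called higher and 0 lower, with a median log2 difference of 0.14. The called gene was Ccnh, the cyclin of the CDK-activating kinase, which averaged 3808 ± 70.0 in endosteal RNA and 2199 ± 248 in central RNA (SD, n = 3 each; log2 difference 0.79, limma adjusted p = 0.0233). The partner kinase genes of the D cyclins did not pass, with Cdk4 at 0.13 and Cdk6 at -0.37 (limma adjusted p = 0.201). Cdk6 turned to 0.20 in the mean of its probe sets and to 0.65 under poly-A scaling.

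Of 18 genes of the retinoblastoma and E2F families and their partners, 2 were called lower and 0 higher, 13 were negative and the median was -0.27. E2f4, an E2F that acts mainly as a repressor in resting cells, had 286, 386 and 386 on the endosteal arrays A to C, against 944, 1037 and 1064 on the central arrays A to C. The gap between the regions was wider than either region's spread, with means of 353 ± 57.8 in endosteal and 1015 ± 63.3 in central RNA (SD, n = 3 each; log2 difference -1.49, SE 0.16, limma adjusted p = 0.00835; 0.0513 with the fixed block). Under poly-A scaling E2f4 stood at -0.50. E2f7, an atypical repressor E2F, averaged 602 ± 40.3 in endosteal RNA and 894 ± 41.4 in central RNA (SD, n = 3 each; log2 difference -0.56, limma adjusted p = 0.0414), and turned to 0.44 under poly-A scaling. Rb1, which encodes the retinoblastoma protein, averaged 3470 ± 489 in endosteal RNA and 3819 ± 306 in central RNA and did not pass (log2 difference -0.14).

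Genes of DNA replication and of mitosis gave 1 call between them. Of 20 S phase genes 1 was called higher and 0 lower, 18 were positive and the median was 0.14. The called gene was Pcna, the sliding clamp of DNA polymerase, at 34927 ± 3409 in endosteal RNA and 22361 ± 2025 in central RNA (SD, n = 3 each; log2 difference 0.64, limma adjusted p = 0.0443), or 0.38 after quantile normalisation. Of 19 G2 and M phase genes 0 were called by limma, with a median of -0.05. The unadjusted limma p was under 0.05 for 2 of the 19, against 29.2% of all genes. With an intensity trend 3 were called lower, as were 3 after centring (median -0.31), while 18 were called higher under poly-A scaling (median 0.97, as for all genes). The smallest p was that of Cenpf, a kinetochore protein gene, which did not pass (log2 difference -0.52, limma adjusted p = 0.0758). Mki67, the proliferation marker gene, averaged 23127 ± 1795 in endosteal RNA and 22998 ± 1527 in central RNA (SD, n = 3 each; log2 difference 0.01). Mki67 was chosen after its values were seen.

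Of 11 genes of the turnover of CDK inhibitors and D cyclins, 0 were called by limma. The unadjusted limma p was under 0.05 for 4 of the 11, against 29.2% of all genes. The smallest p was that of Cul1, the scaffold of the SCF ubiquitin ligases, which did not pass (log2 difference 0.63, limma adjusted p = 0.0537). Of 15 p53 targets other than Cdkn1a, 2 were called higher and 0 lower, with a median of -0.19 and 9 negative. For 7 of the 15 the unadjusted limma p was under 0.05, beside the same 29.2% of all genes. With an intensity trend 2 were higher and 5 lower, and after centring 1 was higher and 4 lower. The called ones were Phlda3, an inhibitor of Akt signalling, at 0.95 (limma adjusted p = 0.0114) and Ccng1, which encodes cyclin G1, at 0.76 (0.0235). The difference of Ccng1 was 0.46 in the mean of its probe sets.

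Regulators of growth arrest went both ways. Of 15 measured, 4 were called higher and 3 lower, with a median of -0.10. Gas1, a growth arrest membrane protein gene of mesenchymal cells, stood at 3.65 (limma adjusted p = 0.00726), Gas6, the ligand of the TAM receptors, at 2.48, Klf9 at 1.24 and the Notch target gene Hes1 at 0.93. The mean of probe sets gave smaller differences of 1.94 for Gas1, 1.28 for Gas6 and 0.80 for Klf9. Klf2, a quiescence factor of lymphocytes, stood at -1.38 (limma adjusted p = 0.0147) and Foxo4 at -0.72 (0.0418), beside Btg1, an antiproliferative gene, at -0.66, which turned to 0.36 under poly-A scaling. The mean of the Foxo4 probe sets was 0.01, and under poly-A scaling Foxo4 turned to 0.27.

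Because Cdkn1c is imprinted, 16 other imprinted genes were set beside it. Of these 5 passed as higher and 0 as lower in endosteal RNA, with a median of 0.32, where 7.92% of all genes passed as higher. The zinc finger gene Plagl1 stood at 2.93 (limma adjusted p = 0.00446), Sgce at 1.81, the adaptor gene Grb10 at 1.61 and Peg3 at 1.55. The mean of probe sets gave 1.05, 0.32, 1.11 and 0.62 for them. Of the neighbours of Cdkn1c in its imprinted cluster, the noncoding Kcnq1ot1 did not pass, at -0.14 (limma adjusted p = 0.716). Phlda2 averaged 51.3 ± 34.8 in endosteal RNA and 59.2 ± 15.7 in central RNA, and Slc22a18 averaged 26.6 ± 16.6 in endosteal RNA and 36.9 ± 33.9 in central RNA (SD, n = 3 each), near background, so that a difference was not detectable. Igf2, from a neighbouring imprinted domain, stood at 1.63 and did not pass (limma adjusted p = 0.0559), with 0.83 in the mean of its probe sets. The bone, muscle, vessel, cartilage, osteoclast, megakaryocyte and macrophage markers described above were mostly higher in endosteal RNA too. The part of these cells in the imprinted genes was not tested.

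**Figure D5:**
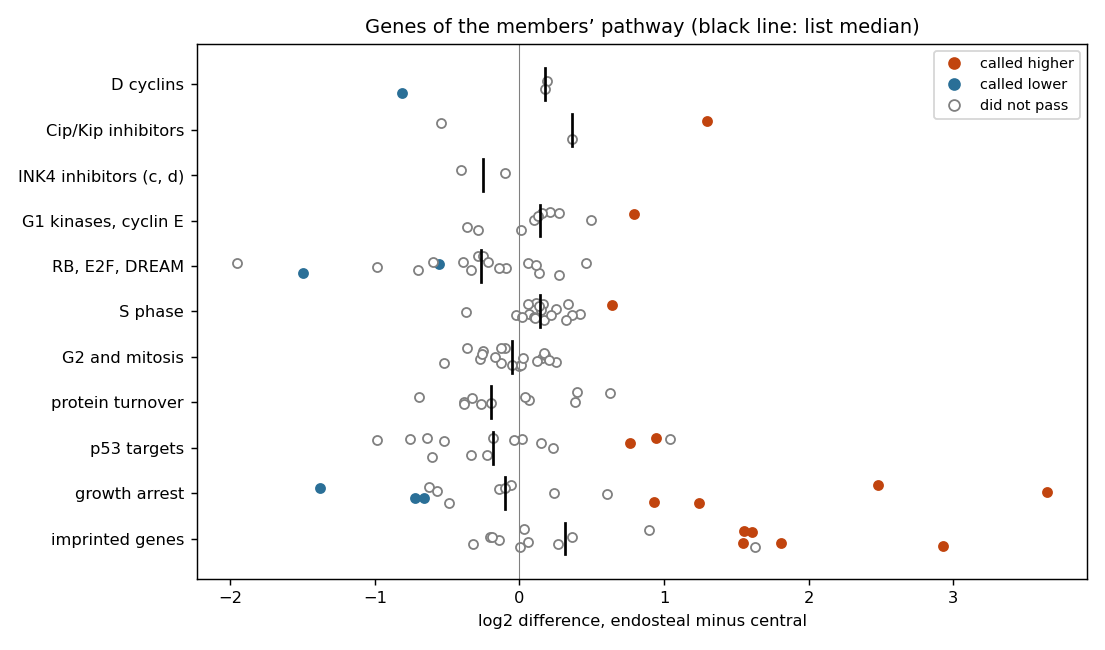
Log2 difference, endosteal minus central, of each member and of each gene in the pathway and imprinted gene lists other than Cdkn2a and Cdkn2b. Each list has 1 row, with called genes filled and the median of each list drawn. E2f4 at -1.49 and Klf2 at -1.38 are the called genes farthest to the left, and Gas1 at 3.65 and Plagl1 at 2.93 those farthest to the right.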

How the data were processed

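The deposited values are the authors' signals per probe set, on a linear intensity scale, from 6 Affymetrix mouse arrays made from 2 micrograms of total RNA each, per the labels. The summarising software is not given in the sources used here. Trimming 2% of probe sets at each end gave a mean of 500 on every array. Names came from the platform annotation, in which 34945 probe sets name 1 gene, 932 several, and 9160 are unnamed here. From the deposited intensities log2(signal + 16) was computed and compared between 3 endosteal and 3 central arrays with limma 3.58.1 in R 4.3.3 (lmFit and eBayes, region as the only term, two-sided), with Benjamini-Hochberg adjustment and a threshold of 0.05. The number of arrays limits the precision. The procedure was tested on simulated data.

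The members and lists were chosen with earlier results of these data known. Named were all members and some genes of each pathway list and of the imprinted gene list. These were up to 4 called genes with the largest difference in the direction most took and up to 2 in the other. Where none was called, the gene with the smallest p was named. The 11 marker lists are given as counts. Each member's 2 nearest genes had the smallest Euclidean distance. A few further genes of the pathway were named after their values were seen.

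The regions came from the same 3 mice and share the letters A, B and C, but no label states that a letter marks 1 mouse. After each region's mean was taken off, arrays of 1 letter correlated at 0.05, 0.04 and 0.01 over all genes, and at 0.26, 0.13 and 0.10 above the median level. Alternatives were quantile normalisation, median centring, poly-A control scaling, pseudocounts 1 and 64, an intensity trend, genes above the median level, the letter as a fixed or random block, the mean of all probe sets of a gene, and leaving out each array.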

Additional observations from a re-analysis of the deposited data

How the results depend on the processing

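As deposited, 1441 genes passed as higher and 731 as lower in endosteal RNA, as did 1444 and 582 probe sets; of the members, 1 gene was called higher, 1 lower and 0 of 20 probe sets. With the letter as a fixed replicate block these were 143 and 6 genes, 0 and 0 probe sets, and 0 and 0 member genes, while 4942 genes, 9225 probe sets, 3 member genes and 6 member probe sets had an unadjusted limma p under 0.05 (5314, 10251, 3 and 6 without the block). Centring gave 951 and 1786 genes, 1927 lower probe sets, 0 member genes higher and 2 lower, and 2 member probe sets lower. Poly-A control scaling gave 10531 and 46 genes, 19954 and 100 probe sets, 6 member genes higher and 0 lower, and 13 member probe sets higher; higher genes made up 66.3% of calls as deposited, 62.3% after quantile normalisation, 34.7% after centring and 99.6% under poly-A scaling. That scaling turned Ccnd3 to 0.21, Cdkn1b to 0.47, Cdkn2d to 0.62 and Cdkn2c (gene and probe set) to 0.92. The other scalings kept all of these genes negative, and the cause was not tested. An intensity trend gave 2215 (12.2%) and 1693 (9.31%) genes, with 1 of 8 member genes higher and 3 lower. It gave 3420 and 2913 probe sets, with 1 member probe set higher and 4 lower. Among genes above the median level 1725 were lower, with 0 members higher and 2 lower; among such probe sets 2778 were higher and 2715 lower, with 1 member higher and 4 lower. Cdkn1c lies below that level and was not tested there. Pseudocount 64 gave 1105 lower genes, 2382 and 1466 probe sets, and 1 member probe set higher and 2 lower; pseudocount 1 gave 857 and 232 probe sets. Quantile normalisation, pseudocount 1 and the mean of all probe sets each left 0 members higher, with 4, 3 and 2 member genes at an unadjusted limma p under 0.05. Leaving out 1 array gave 549 to 928 genes higher and 101 to 307 lower, 210 to 868 probe sets higher and 5 to 181 lower, and 0 to 1 members higher and 0 lower, with 2 to 4 member genes at an unadjusted p under 0.05. Low signal limits, among the genes named, Cdkn2a, Cdkn2b, Phlda2, Slc22a18, the second probe sets of Cdkn1a and Cdkn1b, and the central values of Cdkn1c, Gas1, Peg3 and Igf2.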
